A study of Mus musculus with 90 samples.

Results

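The genes described here are the 8 that code for the enzymes turning glycerol-3-phosphate into triglyceride in the mouse liver tables: Gpam, Agpat2, Agpat3, Lpin1, Lpin2, Lpin3, Dgat1 and Dgat2. They were chosen by name, as the rows of the expression table whose RefSeq ID maps to these symbols, with the ID of highest mean used where a symbol had several. All 8 were found among the 24312 gene symbols of the table, and 3 of them, the lipins, had more than 1 ID. In every experiment all 8 passed the filter on low values, a mean of 0.5 RPKM (reads scaled to transcript length and to the mapped reads of the library), and entered every test.

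RNA was sequenced from 54 livers, each from a single mouse that the labels give as C57BL/6, kept on night-restricted feeding (NRF), in which food is offered only in the dark phase that starts at zeitgeber time (ZT) 12. In the NRF experiment, total RNA depleted of ribosomal RNA was taken from unfed wild-type mice at ZT10 and ZT14 and from mice fed until ZT14, with 2 mice per group. All other libraries were poly(A)-enriched and taken at ZT14. In the injection experiment, wild-type mice received vehicle and stayed unfed, or were fed after vehicle, 1 mg/kg dexamethasone (dex, a glucocorticoid receptor agonist), S961 (an insulin receptor antagonist, at a dose the labels give as 44 nM per mouse) or both, with 4 mice per group. The L-GRKO experiment compared unfed mice that all carried floxed Nr3c1, the gene of the glucocorticoid receptor (GR), and had received an adeno-associated virus (AAV) before NRF, either AAV-GFP or AAV-CRE driven by the liver Tbg promoter, with 4 mice per group. In the L-IRSdKO experiment, all mice carried floxed Irs1 and Irs2, which code for insulin receptor substrates, and all were fed and injected with 1 mg/kg dex. They differed in Alb-Cre, which is active in hepatocytes, with 4 mice per group. The diet experiment compared unfed and fed wild-type mice after 10 weeks of chow (lean) or high-fat diet (obese), each then placed on NRF, with 3 mice per group. By the study's methods the NRF, injected and floxed Nr3c1 mice were C57BL/6N and the L-IRSdKO mice C57BL/6J.

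Triglyceride is built in the liver by stepwise acylation. A glycerol-3-phosphate acyltransferase (GPAT) adds the first fatty acid, an acylglycerophosphate acyltransferase (AGPAT) adds the next to give phosphatidate, a lipin removes the phosphate to give diacylglycerol, and a diacylglycerol acyltransferase (DGAT) adds the last fatty acid. Phosphatidate and diacylglycerol also feed phospholipid synthesis, and lipin 1 is known to act in the nucleus as a coactivator of fatty acid oxidation genes as well. Insulin after a meal and glucocorticoids before it are both known regulators of hepatic lipid metabolism.

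The 6 hepatocyte markers examined were present in every library. Nr3c1 fell from 12.8 to 16.2 RPKM in the AAV-GFP mice to 3.93 to 5.35 RPKM in L-GRKO, and Irs1 from 2.21 to 4.73 RPKM in the floxed controls to 0.149 to 0.321 RPKM in L-IRSdKO, whereas Irs2 ranges overlapped (0.614 to 5.61 against 0.272 to 1.00 RPKM). The 8 libraries of the L-IRSdKO experiment stood apart, in that their 10 most abundant genes held 1.82% to 2.09% of the summed RPKM, against 17.7% to 27.6% in the other 46 libraries, and albumin was at 650 to 914 RPKM against 18853 to 60597 RPKM. Differences in that experiment are taken only within it, and its levels enter sums or means over all libraries only where that is stated. Whether the low share of its abundant genes alters the size of its log2 differences was not tested. Skeletal muscle transcripts summed to 144 RPKM in replicate 2 of ZT14-unfed and to at most 1.93 RPKM in every other library. Adipocyte markers summed to 27.6 RPKM in replicate 2 of obese unfed and 5.39 RPKM in replicate 3 of obese fed, against at most 1.53 RPKM elsewhere. These high sums came mainly from Cfd, which reached 27.5 RPKM. Over all libraries Adipoq, Lep, Plin1 and Retn reached at most 0.577, 0.084, 0.147 and 0.863 RPKM, and whether fat tissue was present was not tested. Over all libraries, stellate cell and fibroblast markers summed to 35.1 to 130 RPKM, neutrophil and lymphocyte markers to 0.046 to 11.8 RPKM and pancreas markers to 0.267 to 9.37 RPKM. In bulk liver, fewer cells of a type and less RNA per cell cannot be told apart. The read counts behind the RPKM values were not analysed here, so no counting error is given.

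Averaged over the 54 libraries, those of the L-IRSdKO experiment included, Dgat2 stood highest at 227 RPKM, followed by Lpin1 at 166, Agpat2 at 86.2, Lpin2 at 79.7, Agpat3 at 55.6, Gpam at 33.8, Dgat1 at 12 and Lpin3 at 1.1 RPKM. RPKM is a level per length, which allows a rough comparison between genes within an experiment. The order can differ between experiments. Gpam and Agpat3 had means of 48.2 and 22.8 RPKM in NRF fed mice, and of 30.3 and 53.6 RPKM in lean fed mice. The order was not fixed at the top: Dgat2 exceeded Lpin1 in 38 of 54 libraries, Lpin1 exceeded Agpat2 in 40, and Agpat2 exceeded Lpin2 in 31. At the bottom, Gpam exceeded Dgat1 and Dgat1 exceeded Lpin3 in all 54 libraries. The members also differed in how far their group means spread. Leaving out the NRF experiment (another RNA preparation) and the L-IRSdKO experiment, the highest group mean was 53.9 times the lowest for Lpin1, 5.90 times for Lpin2 and 2.56 times for Agpat2, and between 1.29 times (Dgat1) and 1.73 times (Lpin3) for the other 5.

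**Figure D1:**
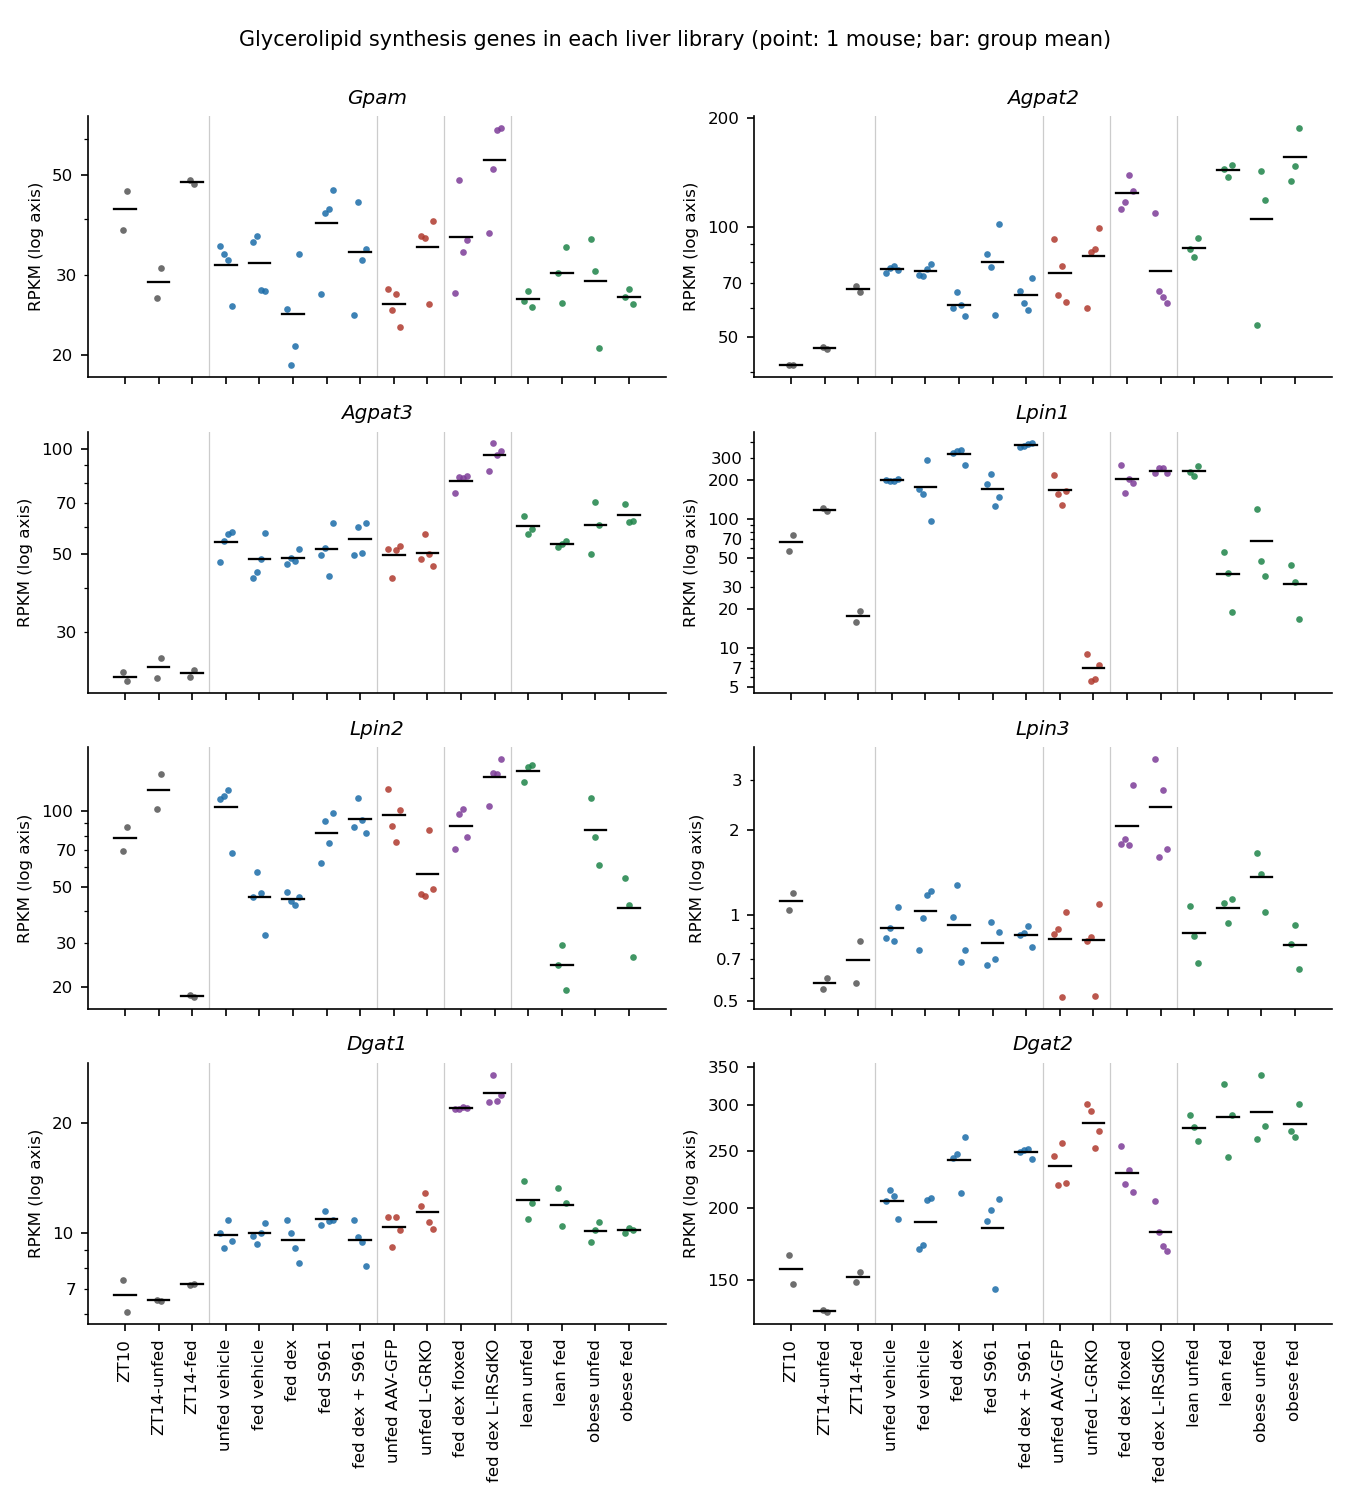
Each panel plots the RPKM of 1 gene (log axis) in the 54 libraries by group, where a point is 1 mouse, a short bar is the group mean and vertical lines separate the 5 experiments. Lpin1 falls to between 5.57 and 9.05 RPKM in L-GRKO and Lpin2 is lowest in fed livers of the NRF and lean groups, whereas Agpat3 and Dgat1 vary mainly between experiments.

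Differences between groups were tested with limma on log2(RPKM + 0.5) over all genes of each experiment, and a gene was called at a Benjamini-Hochberg adjusted p below 0.05. A log2 difference of 1 is a doubling. In the NRF experiment, 2 of 8 members were called between ZT14-unfed and ZT10, where 8.95% of all genes tested were called, and 4 of 8 between ZT14-fed and ZT14-unfed, where 6.77% were. Among injected mice, 1 of 8 was called between fed and unfed vehicle (3.13% of all genes), 1 with dex (3.19%), 1 with S961 (1.90%) and 3 with dex plus S961 (10.6%), each against fed vehicle. A single member was called between fed mice given both drugs and unfed vehicle (2.32% of all genes), and 4 between S961 and dex (7.47%). The knockouts gave 2 of 8 in L-GRKO (6.68%) and 4 of 8 in L-IRSdKO (17.4%). In the diet experiment, 2 of 8 were called for the meal in lean mice (23.4%), 1 for the meal in obese mice (7.65%), 1 between obese and lean unfed mice (5.22%) and 0 between obese and lean fed mice (0.499%, with 2284 of 11434 genes at an unadjusted p under 0.05). Comparisons within an experiment share groups, such as the fed vehicle mice, and their values are set side by side only.

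By gene, Lpin1 and Lpin2 were each called in 9 of these 14 comparisons, Gpam and Dgat2 in 3, Agpat2 in 2, Agpat3 in 1, and Dgat1 and Lpin3 in 0. Over the 14 comparisons the differences of Dgat1 lay between -0.27 and 0.19 and those of Lpin3 between -0.59 and 0.44 on the log2 scale. The differences of Lpin1 lay between -4.50 and 1.18, and those of Lpin2 between -2.66 and 1.04.

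**Figure D2:**
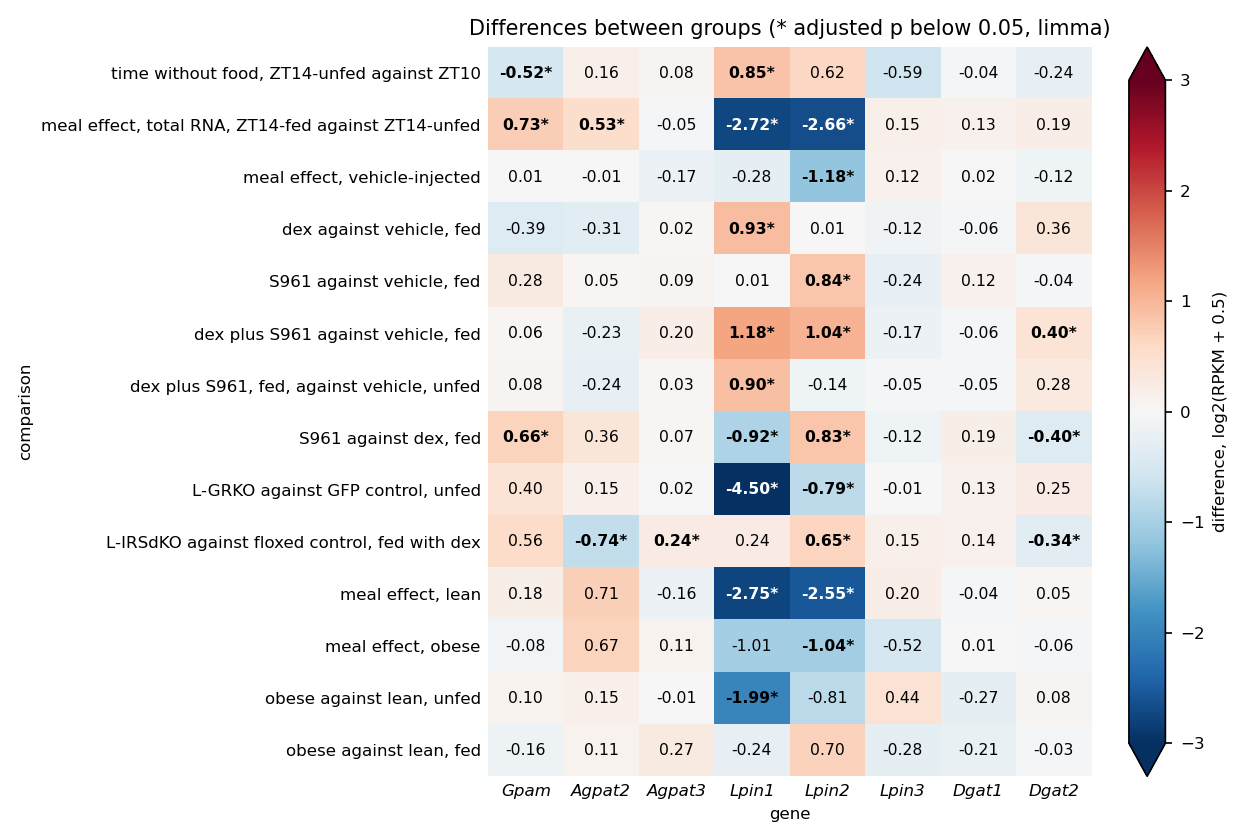
The grid gives the log2 difference of each gene (columns) in each of the 14 comparisons of groups (rows), coloured from blue (lower in the group named first) to red (higher), with a star and bold type where the limma adjusted p was below 0.05. Stars gather in the Lpin1 and Lpin2 columns, with 9 each, and the Dgat1 and Lpin3 columns hold 0.

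Gpam codes for the mitochondrial GPAT that starts the pathway. Before the meal it was at 37.8 and 46.1 RPKM at ZT10 and at 26.8 and 31.2 RPKM at ZT14-unfed, and after the meal it was at 48.7 and 47.6 RPKM. None of these 3 groups overlapped, with ZT14-unfed lowest. Gpam fell by 0.52 from ZT10 to ZT14-unfed (SE 0.12, adjusted p = 0.0453) and was higher by 0.73 in the fed livers (SE 0.12, adjusted p = 0.0211), a fold of 1.66. The first of these calls was lost whichever library was left out (adjusted p 0.0623 to 0.144). The second was lost without either fed library (0.0995 and 0.152) and kept without ZT14-unfed replicate 2 (0.84, adjusted p = 0.033).

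The vehicle-injected mice gave no such rise of Gpam, with 31.5 ± 4.04 RPKM unfed and 31.9 ± 4.85 RPKM fed (SD, n = 4), a log2 difference of 0.01 with a 95% confidence interval of -0.40 to 0.42. In lean mice it was 0.18, with an interval of -0.19 to 0.55. Among fed, injected mice, Gpam was at 19.0, 20.9, 25.3 and 33.5 RPKM after dex and at 27.2, 41.3, 41.9 and 46.3 RPKM after S961. These groups overlapped through the highest dex and the lowest S961 mouse. S961 exceeded dex by 0.66 (SE 0.20, adjusted p = 0.0444), while neither drug alone differed from vehicle past the threshold. Leaving out 1 library ended this call for 6 of 8 libraries, with adjusted p up to 0.156. L-GRKO had 34.6 ± 5.94 RPKM against 25.9 ± 2.21 RPKM (SD, n = 4, log2 0.40, adjusted p = 0.106) and L-IRSdKO 53.8 ± 12.3 RPKM against 36.4 ± 8.91 RPKM (log2 0.56, adjusted p = 0.0971), both with overlapping groups and neither past the threshold.

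Agpat2 and Agpat3 code for AGPATs, the enzymes that turn lysophosphatidate into phosphatidate, and loss of AGPAT2 is a known cause of congenital lipodystrophy. Agpat2 shares 3% of its exonic bases with Egfl7 on the opposite strand, and whether strand was used in counting is not given in the sources used here, so a small part of its reads cannot be assigned with certainty. In the NRF experiment it was at 41.7 and 41.9 RPKM at ZT10, 46.8 and 46.4 RPKM at ZT14-unfed and 68.9 and 66.3 RPKM after the meal. The fed livers were higher by 0.53 on the log2 scale (SE 0.083, adjusted p = 0.0164), a fold of 1.44. Without ZT14-unfed replicate 2, the library with muscle transcripts, the difference was 0.52 (adjusted p = 0.0648), and without either fed library the adjusted p was 0.0935 or 0.129. The median of all genes in this comparison was 0.12, and scaling by median ratios moved the adjusted p of both Agpat2 and Gpam to 0.0547.

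In lean mice Agpat2 was at 82.8, 87.3 and 93.2 RPKM unfed and at 137, 145 and 148 RPKM fed. The groups did not overlap, yet the difference of 0.71 had an adjusted p of 0.0902. The fit takes 1 estimate of the spread from all 4 groups of this experiment, among them the obese unfed mice at 53.9, 119 and 143 RPKM. In a fit of the lean groups alone the same difference passed (adjusted p = 0.00167), the only one of 11 alternative settings in which it did. The 3 obese fed mice were at 134, 147 and 188 RPKM. Vehicle-injected mice showed no such difference, with 76.6 ± 1.35 RPKM unfed and 75.9 ± 2.74 RPKM fed (SD, n = 4, log2 interval -0.27 to 0.24). Dex left Agpat2 at 57.0 to 66.3 RPKM, below the 73.5 to 79.4 RPKM of fed vehicle in every mouse, at a log2 difference of -0.31 that did not pass (adjusted p = 0.176).

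Agpat2 fell in L-IRSdKO. The floxed controls were at 112, 118, 126 and 140 RPKM and the knockouts at 61.8, 64.4, 66.7 and 110 RPKM. Knockout replicate 1 stood apart from the other 3 and just below the lowest control. The difference was -0.74 (SE 0.17, adjusted p = 0.0209), and -0.94 without that mouse (adjusted p = 0.000187). It was lost without 5 of the 8 libraries, at adjusted p up to 0.0636. The summed cholangiocyte markers also fell in these knockouts, from 19.7 to 46.2 RPKM to 7.87 to 13.9 RPKM without overlap, and their part in the result was not tested.

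Agpat3 varied little. Its group means in the injection, L-GRKO and diet experiments lay within 1.34 times of each other, and its only call was a rise in L-IRSdKO, from 75.1, 82.7, 83.2 and 83.6 RPKM to 86.8, 96.3, 98.6 and 104 RPKM. The groups did not overlap, and the difference was 0.24 (SE 0.072, adjusted p = 0.0464). The call was lost without 7 of the 8 libraries, with adjusted p up to 0.132. In the NRF libraries Agpat3 stood at 21.7 to 25.3 RPKM, below its level in all poly(A) libraries, those of the L-IRSdKO experiment included.

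Lpin1 codes for lipin 1, and of the 8 genes it moved furthest with the loss of GR. Unfed AAV-GFP mice were at 129, 156, 165 and 222 RPKM and L-GRKO mice at 5.57, 5.80, 7.46 and 9.05 RPKM. Every knockout lay far below every control. Lpin1 fell by 4.50 on the log2 scale (SE 0.18, adjusted p = 6.23e-07), which is 22.6-fold, with a 95% confidence interval of 17.1 to 29.7. Among the 11649 genes tested in this experiment, it ranked 1 both by size of fall and by p. Leaving out each library in turn gave adjusted p between 1.26e-06 and 1.82e-05.

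Injected dex gave the opposite direction in fed mice. Lpin1 was at 97.4, 157, 171 and 288 RPKM in fed vehicle mice, at 263, 329, 336 and 347 RPKM after dex, at 126, 148, 186 and 223 RPKM after S961 and at 362, 372, 382 and 387 RPKM after both. The highest vehicle mouse lay above the lowest dex mouse, whereas both drugs together put all 4 mice above every other fed mouse. Dex raised Lpin1 by 0.93 (SE 0.22, adjusted p = 0.0256), and dex plus S961 by 1.18 (SE 0.22, adjusted p = 0.00241), a fold of 2.26. The call for dex alone was lost without 6 of the 8 libraries, at adjusted p up to 0.0833, and in a fit of the compared groups alone (adjusted p = 0.16). S961 alone gave 0.01 with an interval of -0.46 to 0.48, and dex exceeded S961, with a difference of S961 against dex of -0.92 (adjusted p = 0.0131, at most 0.0525 with a library left out). The dex-by-S961 interaction, which asks whether the joint effect departs from the sum of both, was 0.24 for Lpin1 (95% interval -0.42 to 0.90, limma adjusted p = 1). In that test 0.00% of all genes were called, and 513 of 11251 had an unadjusted p under 0.05.

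The meal lowered Lpin1 in the NRF and lean mice, and its difference did not pass the threshold in vehicle-injected or obese mice. In the NRF experiment it rose from 56.6 and 76.1 RPKM at ZT10 to 123 and 115 RPKM at ZT14-unfed (0.85, SE 0.16, adjusted p = 0.0228) and was at 15.9 and 19.4 RPKM after the meal. It fell by 2.72 (SE 0.16, adjusted p = 0.000566), which is 6.60-fold. Without ZT14-unfed replicate 2 it fell by 2.77 (adjusted p = 0.000857), and the difference to ZT10 was 0.90 (adjusted p = 0.0582). The rise to ZT14-unfed was lost without 3 of the 4 libraries, at adjusted p up to 0.0846. In lean mice it was at 218, 232 and 258 RPKM unfed and 19.0, 38.3 and 56.0 RPKM fed, and fell by 2.75 (SE 0.48, adjusted p = 0.00292), which is 6.75-fold. Vehicle-injected mice were at 199, 199, 201 and 206 RPKM unfed, within the fed vehicle range of 97.4 to 288 RPKM. Their log2 difference was -0.28 with an interval of -0.74 to 0.19 (adjusted p = 0.534), and it ran from -0.54 without fed vehicle replicate 3, the highest, to -0.02 without replicate 4, the lowest. The labels place replicate 4 of the injected mice in a later library series. Both drugs in fed mice put Lpin1 above the unfed vehicle mice by 0.90 (adjusted p = 0.0363), a call that was lost without any 1 of the 8 libraries (adjusted p 0.0695 to 0.0983).

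Obese mice differed from lean mice in Lpin1 before the meal. Obese unfed livers were at 36.3, 47.2 and 119 RPKM, all below the lean unfed range of 218 to 258 RPKM. The difference was -1.99 (SE 0.48, adjusted p = 0.04), a fall of 3.97-fold with a 95% confidence interval of 1.90 to 8.27. After the meal, obese mice were at 16.8, 32.5 and 44.5 RPKM and overlapped lean mice (-0.24, interval -1.30 to 0.82). The unfed call was lost when any library other than obese unfed replicate 1 was left out, with adjusted p of 0.0917 to 0.119, and the difference then lay between -2.04 and -1.64. Without both obese libraries with high Cfd it was -1.83 (adjusted p = 0.112). Of the 9 marker lists, 5 also separated obese from lean unfed livers without overlap. Endothelial (30.9 to 39.3 against 54.3 to 65.6 RPKM), hepatocyte (44325 to 51835 against 52201 to 61859 RPKM) and skeletal muscle markers (0.309 to 0.52 against 0.824 to 1.1 RPKM) were lower in obese livers. Cholangiocyte (14.4 to 25.4 against 10.5 to 12.8 RPKM) and neutrophil and lymphocyte markers (0.916 to 1.5 against 0.362 to 0.679 RPKM) were higher, and the part of these markers in the result was not tested.

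Lpin2, which codes for lipin 2, was called in all 4 comparisons of fed with unfed mice of the same diet and treatment. In the NRF experiment it was at 69.4 and 86.7 RPKM at ZT10, 102 and 140 RPKM at ZT14-unfed and 18.6 and 18.3 RPKM after the meal. Lpin2 fell by 2.66 (SE 0.17, adjusted p = 0.000893), which is 6.32-fold, and fell by 2.43 without the library with muscle transcripts. Lean mice went from 131, 150 and 152 RPKM unfed to 19.5, 24.4 and 29.4 RPKM fed, and Lpin2 fell by 2.55 (SE 0.27, adjusted p = 0.0003), which is 5.86-fold. Vehicle-injected mice went from 68.3, 112, 115 and 121 RPKM to 32.1, 45.7, 47.1 and 57.5 RPKM, and Lpin2 fell by 1.18 (SE 0.19, adjusted p = 0.00419), which is 2.26-fold. In these 3 comparisons every fed liver lay below every unfed liver. Some summed markers of other cells also differed between fed and unfed mice without overlap. Endothelial markers went from 54.8 to 59.0 RPKM down to 45.9 to 51.2 RPKM in the NRF mice and from 54.3 to 65.6 RPKM down to 39.3 to 46.3 RPKM in lean mice. Stellate cell and fibroblast markers were lower after the meal in both. Both lists overlapped in vehicle-injected mice (endothelial 60.5 to 71.2 RPKM fed, 54.3 to 61.4 RPKM unfed) and in obese mice (38.4 to 40.8 RPKM fed, 30.9 to 39.3 RPKM unfed). With 2 mice per group, as in the NRF experiment, groups often fail to overlap without any true difference. Hepatocyte markers were lower after the meal in the NRF mice (28821 to 32067 against 34644 to 35332 RPKM), and cholangiocyte markers were higher in lean fed mice (13.8 to 20.9 against 10.5 to 12.8 RPKM). In vehicle-injected mice Kupffer cell markers were higher after the meal, at 69.8 to 103 RPKM against 49.8 to 62.2 RPKM. The part of these markers in the meal differences of Lpin2, Lpin1, Agpat2 and Gpam was not tested.

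S961 and dex differed for Lpin2 in the reverse of their pattern for Lpin1. Fed mice given S961 were at 62.4, 74.9, 91.1 and 98.2 RPKM, all above fed vehicle, and those given dex were at 42.4, 43.8, 45.7 and 47.8 RPKM, within the vehicle range. S961 raised Lpin2 by 0.84 (SE 0.19, adjusted p = 0.0246), dex gave 0.01 with an interval of -0.39 to 0.40, and S961 exceeded dex by 0.83 (adjusted p = 0.00812). The call for S961 against vehicle was lost without 4 of the 8 libraries, namely vehicle replicates 1 and 4 and S961 replicates 2 and 4 (adjusted p up to 0.0894). With both drugs Lpin2 was at 81.7, 86.3, 91.9 and 113 RPKM, higher than fed vehicle by 1.04 (adjusted p = 0.0018) and differing from unfed vehicle by -0.14, with an interval of -0.53 to 0.26. The interaction was 0.19 (interval -0.36 to 0.75). In the fed vehicle mice the summed Kupffer cell markers were at 69.8 to 103 RPKM, against 43 to 74 RPKM in the other fed, injected groups, without overlap only for dex plus S961, and their part in these differences was not tested.

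**Figure D3:**
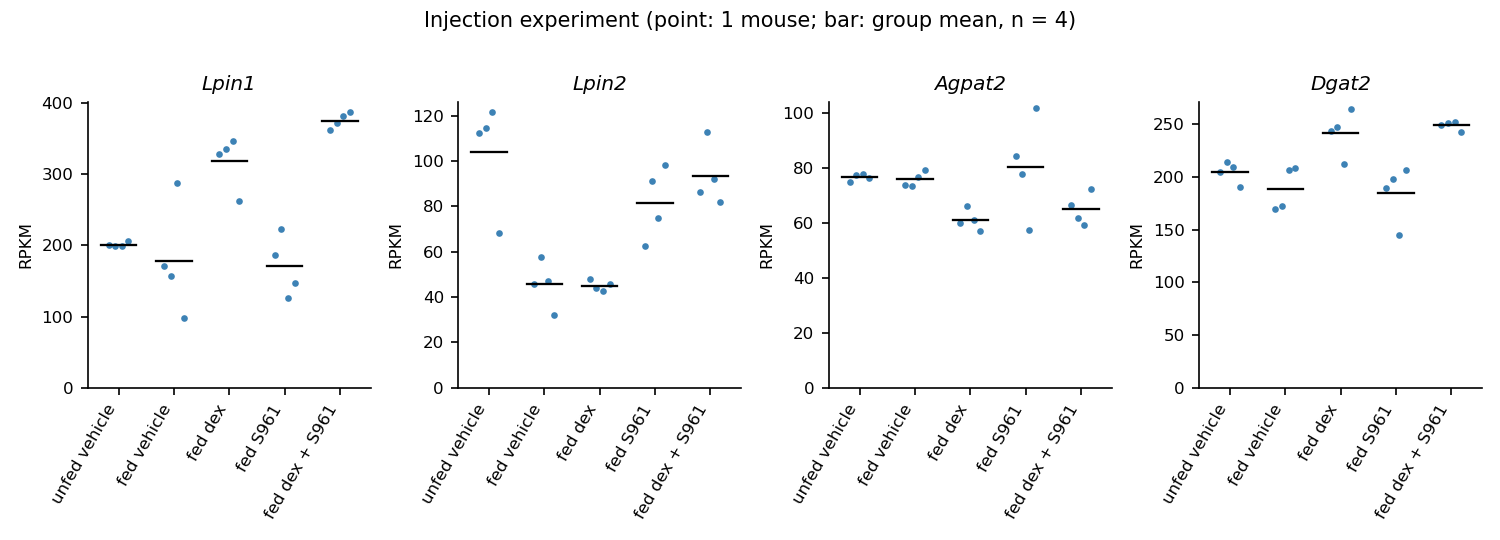
The panels plot Lpin1, Lpin2, Agpat2 and Dgat2 in RPKM (axes from 0) in the 5 groups of injected mice, with 1 point per mouse and a bar at the mean of 4. Lpin1 is highest in both groups given dex, at 263 to 387 RPKM, and Lpin2 is higher in both fed groups given S961 (62.4 to 113 RPKM) than in fed vehicle and dex (32.1 to 57.5 RPKM).

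Lpin2 was also called in both knockouts. AAV-GFP mice were at 75.1, 86.9, 101 and 122 RPKM and L-GRKO mice at 46.1, 46.7, 48.9 and 83.8 RPKM, where replicate 3 of L-GRKO stood apart inside the control range. The difference was -0.79 (SE 0.20, adjusted p = 0.0415), and -1.0 without that mouse (adjusted p = 0.00673). Leaving out any other library except replicate 3 of the controls ended the call (adjusted p 0.0817 to 0.125). In L-IRSdKO, Lpin2 was at 105, 141, 141 and 161 RPKM against 70.9, 78.9, 97.6 and 102 RPKM in floxed mice, all knockouts above all controls, a rise of 0.65 (SE 0.15, adjusted p = 0.0224) that was lost without 5 of the 8 libraries (adjusted p up to 0.0655). Lpin1 in the same mice was at 228 to 250 RPKM against 161 to 262 RPKM (0.24, adjusted p = 0.231). All mice of that experiment had received dex.

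In obese mice, Lpin2 went from 61.2, 79.1 and 113 RPKM unfed to 26.4, 42.5 and 54.4 RPKM fed, with no overlap. Lpin2 fell by 1.04 (SE 0.27, adjusted p = 0.0383). The call was lost when obese unfed replicate 1 or 2 or obese fed replicate 2 or 3 was left out (adjusted p up to 0.119). Without both libraries with high Cfd, Lpin2 fell by 0.784 (adjusted p = 0.173). Whether the meal effect itself differed between diets was tested as an interaction, in which 0.743% of all genes and 0 of 8 members were called. Lpin2 had the smallest p of the members, with the obese meal effect 1.51 above the lean (95% interval 0.68 to 2.34, limma adjusted p = 0.0962), and Lpin1 had 1.74 (interval 0.25 to 3.24, limma adjusted p = 0.266). Against lean mice, Lpin2 in obese mice differed by -0.81 unfed (adjusted p = 0.103) and 0.70 fed (adjusted p = 0.187).

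**Figure D4:**
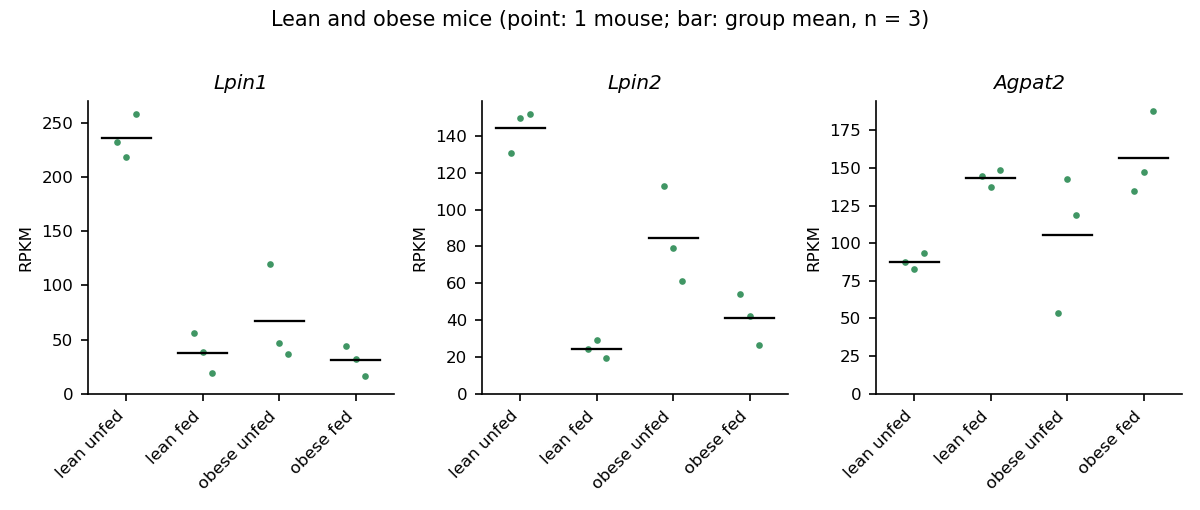
The panels plot Lpin1, Lpin2 and Agpat2 in RPKM (axes from 0) in lean and obese mice, unfed and fed, with 1 point per mouse and a bar at the mean of 3. Lean unfed mice stand highest for Lpin1 (218 to 258 RPKM) and Lpin2 (131 to 152 RPKM), and Agpat2 in obese unfed mice spreads from 53.9 to 143 RPKM.

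Lpin3, the third lipin gene, was near the lower limit of what was tested, at 0.516 to 1.66 RPKM outside the L-IRSdKO experiment, and was called in no comparison. At this level the pseudocount of 0.5 damps differences. Its largest difference was -0.59 from ZT10 (1.04 and 1.20 RPKM) to ZT14-unfed (0.548 and 0.601 RPKM).

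Dgat1 and Dgat2 code for unrelated DGATs that carry out the same last step. Dgat1 was called nowhere, and its group means in the injection, L-GRKO and diet experiments lay within 1.29 times of each other. Its lowest difference was -0.27, between obese unfed mice (9.43, 10.2 and 10.7 RPKM) and lean unfed mice (10.9, 12.1 and 13.9 RPKM), which did not overlap. Dgat2 was at 169, 172, 206 and 208 RPKM in fed vehicle mice, at 212, 243, 247 and 265 RPKM after dex, at 145, 190, 198 and 207 RPKM after S961, and at 243, 250, 252 and 252 RPKM after both. Both groups given dex lay above every other fed, injected mouse. Dex plus S961 exceeded vehicle by 0.40 (SE 0.11, adjusted p = 0.0222), and S961 lay below dex (-0.40, adjusted p = 0.0299). These calls were lost without 3 and 4 of the 8 libraries, at adjusted p up to 0.0782 and 0.0886. Dex alone gave 0.36 (adjusted p = 0.0782), which passed in a fit with a term for the library series (adjusted p = 0.033).

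In L-GRKO, Dgat2 was at 253, 271, 294 and 301 RPKM against 219, 221, 245 and 258 RPKM in controls, an overlap of 1 mouse each and a difference of 0.25 that did not pass (adjusted p = 0.168). In L-IRSdKO it was at 168, 172, 181 and 205 RPKM against 213, 219, 232 and 255 RPKM, all knockouts below all controls, and fell by 0.34 (SE 0.082, adjusted p = 0.0237). This call was lost without 5 of the 8 libraries (adjusted p up to 0.0694). Meal effects on Dgat2 lay between -0.12 and 0.19 in the 4 comparisons of fed and unfed mice, none past the threshold.

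Other genes around the pathway were tested from a list of the enzymes that supply its substrates, share its steps or draw on its intermediates, and of their regulators. Srebf1, which codes for the insulin-responsive activator of lipid synthesis genes, was called most often. It rose with the meal in the NRF experiment (9.24 to 56.8 RPKM, 2.65), in vehicle-injected mice (16.3 to 40.3 RPKM, 1.27) and in lean mice (17.8 to 109 RPKM, 2.60), and fell with S961 (-1.84), with dex plus S961 (-2.41) and in L-IRSdKO (-1.82). Its meal effect differed between diets (-2.33, limma adjusted p = 0.0224), and in unfed mice it was higher in obese than in lean livers (51.3 against 17.8 RPKM, 1.47). Ppargc1a, which codes for the coactivator PGC-1alpha, fell with the meal in the NRF (-1.13) and lean mice (-1.90) and rose with dex (0.96), S961 (0.81), both (1.08) and in L-IRSdKO (2.18).

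Among enzymes that share a step with the members, Gpat4, a GPAT of the endoplasmic reticulum, rose with dex (78.2 to 112 RPKM, 0.52) and with dex plus S961 (132 RPKM, 0.76). Gpat3, another GPAT, was at 5.42 RPKM with both drugs against 2.22 RPKM in fed vehicle mice (1.14). Agpat1, a further AGPAT, rose with the meal in the NRF (0.77) and lean mice (0.53). Acsl1, which activates fatty acids to acyl-CoA, rose with S961 (441 to 697 RPKM, 0.65). In L-GRKO, 9 listed genes rose, namely Acsl3 (6.09 to 12.2 RPKM, 0.96), Srebf1 (0.80), Plpp3 (0.64), Aqp9 (0.52), Gk (0.48), Pcyt1a (0.45), Acsl5 (0.42), Cept1 (0.39) and Lclat1 (0.36). Acsl3 and Acsl5 activate fatty acids, Gk and Aqp9 serve the supply of glycerol-3-phosphate, and Pcyt1a and Cept1 act in phospholipid synthesis. Etnk2, an ethanolamine kinase of phospholipid synthesis, fell in L-GRKO (170 to 92.0 RPKM, -0.87). All values in these 2 paragraphs are log2 differences past an adjusted p of 0.05 unless given as RPKM.

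By count, the meal raised 3 and lowered 1 of the 46 listed genes tested in the NRF experiment, where 6.77% of all genes were called (median log2 difference 0.20, all genes 0.12), 1 and 0 of 46 in vehicle-injected mice (3.13%), 6 and 2 of 47 in lean mice (23.4%), and 2 and 3 of 47 in obese mice (7.65%). Dex raised 2 and lowered 2 of 46 (3.19%), S961 raised 3 and lowered 1 (1.90%), and both together raised 4 and lowered 3 (10.6%, median -0.20, all genes -0.14). The genes lowered by dex, 1 of glycerol-3-phosphate supply and 1 phosphatase, are not named here. L-GRKO had 9 higher and 1 lower of 45, against 6.68% of all genes called (median 0.24, all genes 0.082), and L-IRSdKO 8 higher and 3 lower of 50, against 17.4% (median -0.0084, all genes 0.031). Between obese and lean mice, 3 were higher and 2 lower of 47 unfed (5.22%), and 0 higher and 1 lower fed (0.499%). As shares, the listed genes called were below the share of all genes for the meal in lean and vehicle-injected mice. They were above it in all the other comparisons of this paragraph, L-GRKO among them, and this was not tested.

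Binding of GR and of FOXO1, a transcription factor that insulin signalling keeps out of the nucleus, had been mapped in unfed ZT14 livers, and open chromatin as DNase I hypersensitive sites (DHSs) over all DNase libraries. The lists give positions on the mouse genome build mm9 without heights, 10446 for GR, 8546 for FOXO1 and 83592 for DHSs. Within 50 kb of the gene start, 7 of 8 members had a GR peak, 7 of 8 a FOXO1 peak and 8 of 8 a DHS. Of the 9861 placed genes that passed 0.5 RPKM over all libraries, 47.7% had a GR peak, 50.5% a FOXO1 peak and 99.7% a DHS. The 7 of 8 held at 20 kb as well, where 29.7% and 33.1% of these genes had one. Agpat3 lacked FOXO1, and Dgat1 lacked GR. In all, the members had 35 GR peaks, of which 24 overlapped a DHS and 16 a FOXO1 peak, and 22 FOXO1 peaks, of which 17 overlapped a DHS. Over the whole lists, 81.6% of GR peaks overlapped a DHS and 48.8% a FOXO1 peak, and 84.9% of FOXO1 peaks overlapped a DHS.

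**Figure D5:**
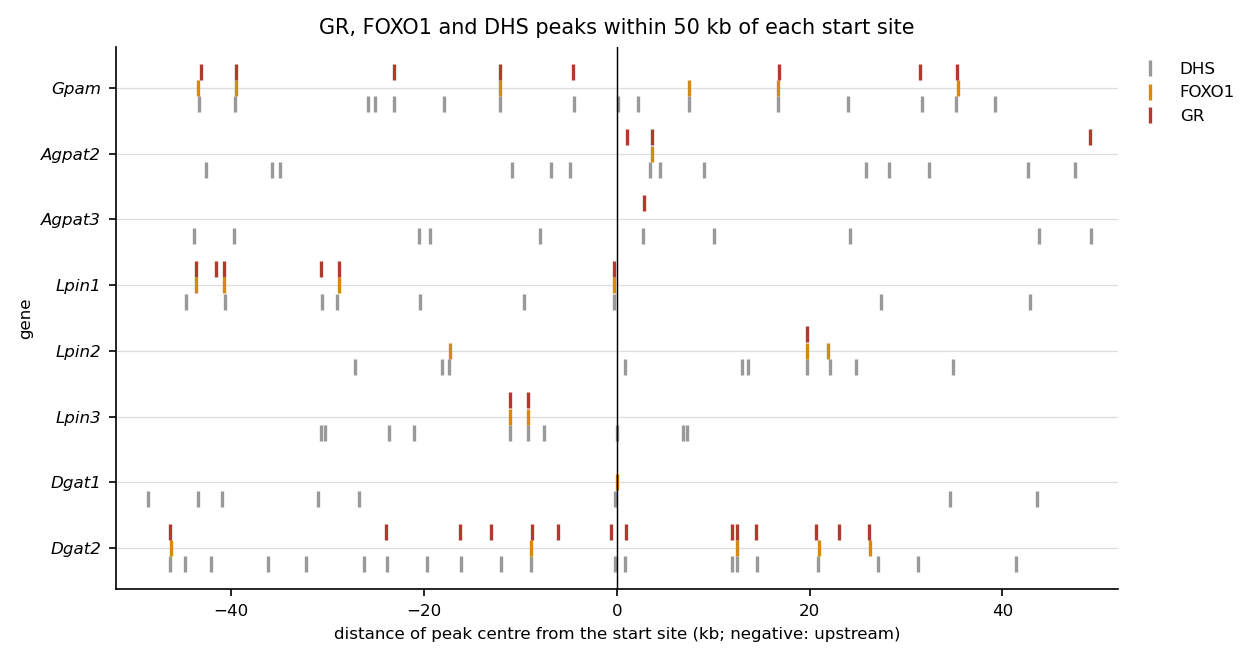
Ticks mark the centres of GR (red), FOXO1 (orange) and DHS (grey) peaks within 50 kb of the start of each gene, with the distance in kb on the x axis and negative values upstream. Dgat2 has 14 GR peaks and Gpam 8, whereas Lpin2 and Agpat3 have 1 each and Dgat1 has 0.

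On mm9, in GENCODE vM1, Gpam lies on the minus strand at chr19:55142142-55201824, Agpat2 (minus) at chr2:26448577-26459937 and Agpat3 (minus) at chr10:77731923-77815234. Lpin1 (minus) lies at chr12:16542475-16596576, Lpin2 (plus) at chr17:71531900-71599157 and Lpin3 (plus) at chr2:160706406-160731738. Dgat1 (minus) lies at chr15:76332445-76342381 and Dgat2 (minus) at chr7:106302173-106331223. Distances are from the 5′ end of each gene to the centre of a peak, and other annotated transcript starts within a gene were not used.

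Dgat2 had 14 GR peaks within 50 kb, more than any other of the 18089 placed genes, with 9 of the 14 in a DHS, and 20 DHSs. Gpam had 8 GR, 6 FOXO1 and 16 DHS peaks, and Agpat2 had 3, 1 and 14. Lpin3 had 2 GR and 2 FOXO1 peaks, all in an intron of the neighbouring gene Zhx3, and Agpat3 had 1 GR peak in its own intron. At Dgat1 the only peak of either factor was a FOXO1 peak centred 36 bp upstream of its start. The number of GR peaks did not follow the order of the changes in L-GRKO, where Lpin1 with 6 peaks and Lpin2 with 1 were called, and Dgat2 and Gpam were not.

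The sequences under 5 of these peaks are shown for Lpin1 and Lpin2, called with GR loss, and for Dgat2, which was called with dex plus S961 and not with GR loss or dex alone. All are mm9, plus strand, from the intervals as deposited, and capitals mark a match on either strand to ACANNNTGT, the core of the palindromic glucocorticoid response element, or to the forkhead motif TGTTTNC, of which TGTTTAC is a stricter form. A full element, here the core with a G before it and a C after it, each 1 base away, was found in 7.8% of all GR peaks, 3.25% of FOXO1 peaks and 0.561% of DHSs, and its core in 20.3%, 12.7% and 5.99%. TGTTTAC was found in 7.29%, 18.8% and 4.36%, and TGTTTNC in 25.9%, 37.6% and 18.7%.
Lpin1, GR, intergenic, 327 bp upstream, chr12:16596814-16596993: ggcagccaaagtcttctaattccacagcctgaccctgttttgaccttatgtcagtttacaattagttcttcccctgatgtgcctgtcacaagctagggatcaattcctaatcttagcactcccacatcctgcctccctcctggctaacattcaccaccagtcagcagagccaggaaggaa
Lpin1, GR, intergenic, 28842 bp upstream, chr12:16625329-16625508: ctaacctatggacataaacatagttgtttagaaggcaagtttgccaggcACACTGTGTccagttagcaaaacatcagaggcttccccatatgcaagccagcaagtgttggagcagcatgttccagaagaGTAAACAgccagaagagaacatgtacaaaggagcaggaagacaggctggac
Lpin2, GR, intron, 19731 bp downstream, chr17:71551542-71551721: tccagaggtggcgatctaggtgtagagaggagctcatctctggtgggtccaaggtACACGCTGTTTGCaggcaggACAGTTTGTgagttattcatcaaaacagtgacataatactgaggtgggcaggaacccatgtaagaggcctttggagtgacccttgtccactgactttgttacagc
Lpin2, FOXO1, intron, 21907 bp downstream, chr17:71553718-71553897: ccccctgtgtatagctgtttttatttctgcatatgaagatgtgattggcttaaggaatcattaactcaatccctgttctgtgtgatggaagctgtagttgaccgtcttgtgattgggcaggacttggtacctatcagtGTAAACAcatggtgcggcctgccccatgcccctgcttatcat
Dgat2, GR, intron, 11964 bp downstream, chr7:106319169-106319348: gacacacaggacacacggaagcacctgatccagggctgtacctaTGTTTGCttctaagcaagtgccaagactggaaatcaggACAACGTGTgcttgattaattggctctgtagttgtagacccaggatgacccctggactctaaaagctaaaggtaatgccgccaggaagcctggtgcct

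Of the 35 GR peaks of the members, 2 held the full glucocorticoid response element, namely the distal Lpin1 peak and the intronic Dgat2 peak shown, and 6 held its core. The peaks shown therefore do not stand for all GR peaks of the members. As shares, 5.71% of the 35 held the full element and 17.1% the core, against 7.8% and 20.3% of all GR peaks. The distal Lpin1 peak also held TGTTTAC on the minus strand, printed as GTAAACA, and overlapped a FOXO1 peak but no DHS. The proximal Lpin1 peak held none of these letters, and overlapped a FOXO1 peak and a DHS. The other 4 GR peaks of Lpin1 lay 30676 to 43650 bp upstream. In the Lpin2 GR peak the core was found in 2 places, the first overlapping TGTTTGC, and this peak overlapped both a FOXO1 peak and a DHS. The Lpin2 FOXO1 peak with TGTTTAC lay within an intron and overlapped neither a GR peak nor a DHS. The annotated transcripts Lpin2-201 and Lpin2-005 start 22094 and 22116 bp downstream of the gene start, just past this peak. The GR peak nearest to Dgat2, 569 bp upstream of its start and not shown, held none of these motifs and contained a long CT repeat. Of the 22 FOXO1 peaks of the members, 3 held TGTTTAC and 10 held TGTTTNC. A match is a description of the letters and not evidence of a site.

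For correlations, the mean of each experiment was first subtracted from the log2 values of each gene. Across the 54 libraries, the genes whose log2 values then followed each member most closely, among 11897 genes, were Arhgef26 (Pearson r 0.915), Tmc7 (0.901) and Errfi1 (0.885) for Lpin1, and Tcp11l2 (0.907), Crebrf (0.896) and Klf9 (0.873) for Lpin2. The closest gene was Tysnd1 for Agpat2 (0.81), Sco2 for Agpat3 (0.784), Sec22c for Dgat2 (0.717), Oip5os1 for Gpam (0.658), Vps35l for Lpin3 (0.613) and Vdac1 for Dgat1 (0.578). Between members, Lpin1 and Lpin2 had r = 0.628, Agpat2 and Lpin2 had r = -0.524, and Agpat2 and Lpin1 had r = -0.49. The subtraction removes differences in mean level between experiments. The 54 points still share groups within an experiment, so the correlations describe these libraries only.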

How the data were processed

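Liver RNA of 54 mice was measured in 5 experiments. The authors aligned reads with STAR to mm9 and deposited RPKM values on RefSeq transcripts, which correct for depth and length but not for a few abundant genes. GR, FOXO1 and DHS peak positions were deposited as called with HOMER by the authors, GR and FOXO1 against input and in both replicates, DHSs over all DNase libraries combined. Versions are not given in the sources used here, and the depth behind single RPKM values is unknown. Of 35707 RefSeq IDs, 35407 mapped to 24312 symbols. The labels number the S961 compound upwards in some titles, which was read as 1 compound. Samples were grouped by their titles. Replicates are single mice by the labels. The p-values set group differences against the spread between these mice, pooled over groups and moderated over all genes. In the injection experiment this spread can also hold the later library series of replicate 4.

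Each experiment was fitted apart with limma 3.58.1 (R 4.3.3, variance trend, all groups in 1 fit, no replicate block) on log2(RPKM + 0.5) for genes with a mean of 0.5 RPKM or more. P-values were adjusted by Benjamini-Hochberg over all genes, called below 0.05. Fold changes are on this log2 scale, which understates the change of low genes. The fits were also run on simulated data with independent noise for each gene and library. Such data cannot show error rates where libraries are correlated. The RefSeq models used by the authors were not used for positions, so gene starts came from GENCODE vM1 on mm9 (18089 placed genes), and overlap meant 1 bp or more. Correlations used log2(RPKM + 0.5) with the mean of each experiment subtracted. Python 3.11.15, pandas 2.3.3, numpy 2.4.6 and matplotlib 3.10.9 did the rest.

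The members, the pathway list and the marker lists were chosen with earlier results of these data known. The rule for named genes was the 8 members in every comparison, pathway genes as counts with values for called ones, and the genes of highest Pearson r to each member. Not every called pathway gene is named in the text. Adipocyte (Adipoq, Lep, Plin1, Cfd, Retn), skeletal muscle, Kupffer cell, stellate cell and fibroblast, endothelial, cholangiocyte, neutrophil and lymphocyte, pancreas and hepatocyte markers were summed per library. Other settings tried were a pseudocount of 0.1 or of 1, a filter at 2 RPKM or none, median-ratio scaling, quantile normalization, every RefSeq ID as a row, no variance trend, a replicate block, compared groups alone, a library series term, an adjusted p of 0.01, each library left out, and windows of 20 and 100 kb. Leaving out both obese libraries with high Cfd was added after seeing the data.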

Additional observations from a re-analysis of the deposited data

Results flagged for a closer look

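In each group of 4 mice, the highest and lowest mouse were compared with the other 3 by Dixon's test at the 95% level, which flags about 1 in 20 groups by chance. Of 72 groups of 4 tested over the 8 genes, 5 had such a mouse. Agpat2 was at 110 RPKM in L-IRSdKO replicate 1, high beside the other 3 knockouts at 61.8 to 66.7 RPKM. This mouse lay nearest the controls, so leaving it out had to widen the difference, and the value without it, given above, adds no weight to the call. Lpin2 was at 83.8 RPKM in L-GRKO replicate 3, high beside 46.1 to 48.9 RPKM in the other 3. Agpat3 was at 42.9 RPKM in AAV-GFP replicate 2, low beside 51.4 to 52.9 RPKM, and at 75.1 RPKM in floxed replicate 1 of the L-IRSdKO experiment, low beside 82.7 to 83.6 RPKM. Lpin3 was at 2.87 RPKM in floxed replicate 4, high beside 1.76 to 1.85 RPKM. No explanation of these mice was tested. No interaction of any of the 8 genes passed the threshold.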

How the results depend on the processing

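Of the 27 calls of the 8 genes, 9 were kept under every alternative and with each library left out: Lpin1 and Lpin2 for the meal in the NRF and lean mice and for dex plus S961 against fed vehicle, Lpin2 for the meal in vehicle-injected mice and for S961 against dex, and Lpin1 in L-GRKO. The other 18 were lost under at least 1 setting, and 0 changed sign. Of 313 recomputed counts of members called, 227 stayed within 1.5 times of the reported count and 86 did not. The cause of these changes was not tested, beyond the stricter threshold and the fewer mice that some settings impose.

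At an adjusted p of 0.01, the members called were 2 for the NRF meal, 1 for S961 against dex and 1 in L-GRKO, and 0 for ZT14-unfed against ZT10, dex, S961, dex plus S961 against unfed vehicle, L-IRSdKO, the obese meal and obese against lean unfed. Without a filter, 1 was called in L-GRKO and 0 for ZT14-unfed against ZT10, dex plus S961 against unfed vehicle, the obese meal and obese against lean unfed. Median-ratio scaling, which brings the median of all genes (-0.14 to 0.12 over these comparisons as deposited) close to 0, gave 1 for ZT14-unfed against ZT10, 2 for the NRF meal and 2 for dex. Quantile normalization gave 1 for ZT14-unfed against ZT10 and 0 for obese against lean unfed, and turned Lpin1 under S961 from 0.01 to -0.026. Without the variance trend, 1 was called in L-GRKO and 2 in L-IRSdKO. In fits of the compared groups alone, the counts were 1 for ZT14-unfed against ZT10, 2 for S961 against dex, and 0 for dex, S961, the obese meal and obese against lean unfed. A term for the library series gave 2 for dex. Without both obese libraries with high Cfd, 0 were called for the obese meal and 0 for obese against lean unfed.

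With the replicate block, 1 member was called for ZT14-unfed against ZT10, 2 for dex, 1 in L-GRKO and 2 in L-IRSdKO, and other counts stayed within 1.5 times. Replicate 4 of the injected mice also shares a later library series by the labels. For the other same-numbered mice the labels give nothing shared beyond the number. Correlations of deviations between same-numbered mice ran from -0.12 to 0.605 in the injection experiment (mean 0.213, against -0.0645 for different numbers) and from -0.201 to 0.215 in the diet experiment. The lowest was -0.029 in the NRF, -0.0547 in the L-GRKO and -0.0587 in the L-IRSdKO experiment. In the injection experiment, 12 of 20 mice correlated best with their own number, and what these mice share was not tested.

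With 1 library left out at a time, a group of 2 then left with 1 mouse that is assumed to vary like the others, the members called ranged from 0 to 1 for ZT14-unfed against ZT10, 2 to 4 for the NRF meal, 0 to 1 for dex, 0 to 1 for S961, 2 to 3 for dex plus S961, 2 to 4 for S961 against dex, 0 to 0 for dex plus S961 against unfed vehicle, 1 to 3 in L-GRKO, 0 to 5 in L-IRSdKO, 0 to 2 for the obese meal, 0 to 3 for obese against lean unfed and 0 to 1 for the diet-by-meal interaction. Values near 0 changed sign: Lpin1 under S961 ran from -0.25 to 0.27, its dex-by-S961 interaction from -0.028 to 0.49, Lpin2 under dex from -0.15 to 0.13, and Agpat2 for the meal in vehicle-injected mice from -0.036 to 0.00033. Lpin3 has no value in the diet experiment at a filter of 2 RPKM. The depth behind low RPKM values is unknown, which limits Lpin3 most. Peaks within 20 kb or 100 kb left the members with a peak at 7 of 8 or more for GR and FOXO1 and 8 of 8 for DHSs.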
